A study of Mus musculus with 6 samples.

Results

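Gzmc-positive NK cells were 103 of 6364 kept cells from a droplet single-cell RNA-seq series on the mouse melanoma line YUMM2.1, which compared groups labelled Empty vector (EV) and Bmal1 WT, Bmal1 being the circadian transcription factor encoded by Arntl. A kept cell had at least 200 genes and at most 20% mitochondrial UMIs (unique molecular identifiers, each counting 1 captured transcript). A member had at least 2 raw UMIs of Ncr1, Klrb1c and Eomes together, no Cd3e, Cd3d or Csf1r UMI, under 2 UMIs of Mki67 and Top2a together, and at least 1 UMI of Gzmc. NK cells that met the same conditions with 0 Gzmc UMIs numbered 1182 and served as the comparison. Each group was 1 droplet library holding 3 hashtag replicates (cells marked by antibody-bound barcodes), h1, h7 and h8 for EV and h3, h5 and h9 for Bmal1 WT. The sample labels name only the cell line as the source and say nothing of a host, a tissue, an age or a promoter, so the sources used here do not give the origin of the immune cells or say whether replicates were separate animals. The p-values below therefore measure only the spread between hashtags, and group and library cannot be told apart. The third group, Bmal1 bHLH, was not analysed here because its 3 files were identical to those of Bmal1 WT.

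NK cells are innate lymphocytes that kill target cells by releasing perforin and granzymes, serine proteases stored in granules. Granzyme C is encoded by Gzmc in a cluster of granzyme genes that includes Gzmb, and it is known as a granzyme of strongly stimulated killer lymphocytes and of tissue-resident innate lymphoid cells. Circulating NK cells use Klf2, S1pr1 and S1pr5 to leave tissue, whereas resident innate lymphoid cells (ILC1) are known for Itga1 and Cxcr6.

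The EV library supplied 52 members among 3978 kept cells and the Bmal1 WT library 51 among 2386. Of all 103 members, 93 carried 1 hashtag (15, 17 and 15 in h1, h7 and h8, and 32, 6 and 8 in h3, h5 and h9), 6 carried none and 4 carried several. Hashtag h3 thus held more members than the other 2 Bmal1 WT hashtags together, and h5 and h9 rested on under 10 cells each. Without a hashtag were 9.75% of the kept EV cells and 27.7% of the kept Bmal1 WT cells, and these entered no test. The 2 libraries shared 5 cell barcodes, none of them a member. The median kept cell had 5094 UMIs in EV and 7570.5 in Bmal1 WT. Members were deeper than Gzmc-negative NK cells, with a median of 8143 against 4470.0 UMIs, and a deeper cell shows a Gzmc UMI more readily. That depth enters the choice of members, so the share of members and the contrast of classes are also given after NK cells were thinned to 2000 UMIs. NK cells with under 2000 UMIs were left out of the thinned data, 98 of 948 in EV and 14 of 337 in Bmal1 WT.

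Gzmc lies on mouse chromosome 14 (chr14:56231441-56234656 on the minus strand, GRCm38, GENCODE M21). Among members 40 had a single Gzmc UMI, 26 had 2 to 7 and 37 had 8 or more, up to 185. These values chose the members and are a description. The members' Gzmc level was 790.3, 656 and 1226 CPM (UMIs of the gene per 1e6 UMIs of all genes) in h1, h7 and h8, and 2640.0, 3402 and 2309 CPM in h3, h5 and h9. Just outside the gate stood 30 cells kept out by Mki67 and Top2a alone, with a median of 19.5 and up to 907 Gzmc UMIs, 19 kept out by Cd3e or Cd3d alone, 18 with an NK sum of 0 and 2 with an NK sum of 1. Just inside it stood 4 members with an NK sum of exactly 2. A Gzmc UMI was present in 8.02% of gated NK cells (95% exact binomial interval 6.59 to 9.64%, median 4711 UMIs). In cells that should lack the transcript it was present in 3 of 747 macrophage-gated cells (0.402%, 0.0829 to 1.17%, median 10058 UMIs) and in 4 of 411 fibroblasts (0.973%, 0.266 to 2.47%, median 23752 UMIs). The NK share lay above both although those cells were deeper. The intervals cover counting error only. The neighbouring granzymes Gzmd, Gzme, Gzmf and Gzmg had 0 UMIs in members and in Gzmc-negative NK cells. None of the 351 stretches of 50 bases in the last 400 bases of Gzmc occurred in any other granzyme transcript compared.

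The gate itself required Ncr1, Klrb1c or Eomes and set Cd3e, Cd3d and Csf1r to 0, so these genes say nothing about the label NK. All 13 NK markers of the list were detected, the gate genes among them. Of 12 T cell markers Cd4, Cd5 and Cd6 were at 0 besides the gated ones, Trbc1 was at 471 CPM (568 in Gzmc-negative NK cells), and Cd3g was at 25.3 CPM in 9 members (8.74%), against 5.32 CPM in 2.12% of Gzmc-negative NK cells. Ighm, of the B cell list, was at 285 CPM against 155 CPM and Pecam1, of the endothelial list, at 216 against 123 CPM. Pecam1 had a UMI in 67.0% of members and was at 30.1 CPM in all other kept cells. Kdr and Emcn of the endothelial list were at 0 in both NK classes. The part of Ighm and Pecam1 in the results was not tested. The gate genes stood at 325 CPM for Ncr1, 613 CPM for Klrb1c and 307 CPM for Eomes as means over 6 hashtags, against 344, 829 and 509 CPM in Gzmc-negative NK cells. Eomes, the T-box factor that separates NK cells from ILC1, had 0 UMIs in 26 members and in 239 Gzmc-negative NK cells. The 6 other B cell markers, all 5 neutrophil markers and the melanoma markers Sox10, S100b, Mlana, Pmel, Dct and Tyr were at 0 in members, and the summed macrophage markers ranged from 0 to 19.3 CPM over hashtags. The largest folds over all other kept cells after Gzmc, computed with 5 CPM added to both sides for the 3050 genes that reached 20 UMIs and 50 CPM in members, were those of Xcl1 (494 against 58.6 CPM), a chemokine that attracts cross-presenting dendritic cells, Khdc1a (104 against 9.06 CPM), AC163354.1 (242 against 28.1 CPM), Styk1 (192 against 22.5 CPM) and the pore-forming protein gene Prf1 (809 against 113 CPM). In Gzmc-negative NK cells these genes were, in that order, at 259, 80.2, 125, 144 and 846 CPM. Car2, a carbonic anhydrase gene, stood at 591 CPM in members, 545 CPM in Gzmc-negative NK cells and 88.0 CPM elsewhere. These folds follow from gating NK cells and were not tested.

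**Figure D1:**
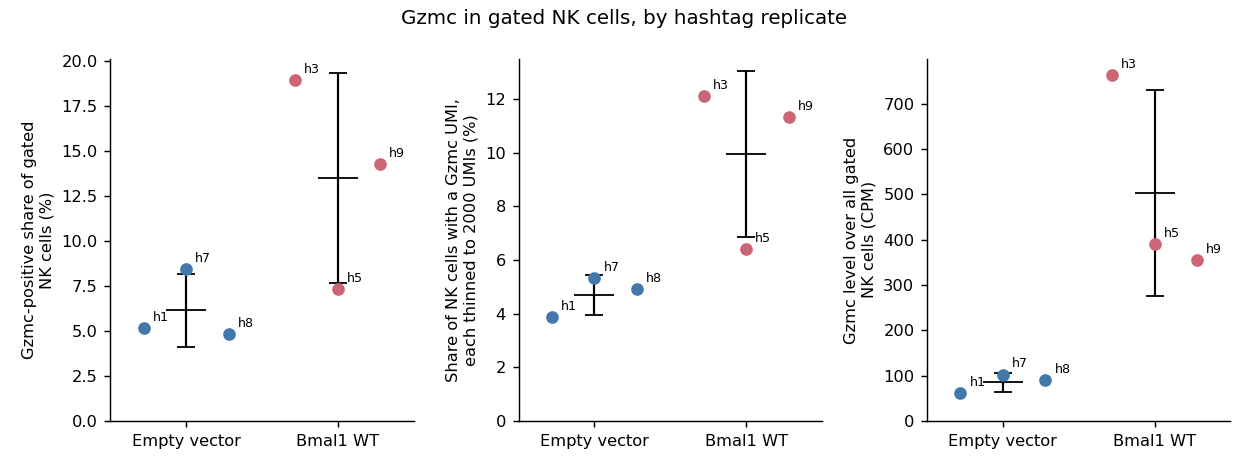
Each point is 1 hashtag replicate, labelled by its name, and bars give the mean ± SD of 3. The left panel shows the percentage of gated NK cells with a Gzmc UMI. The middle panel shows the same after thinning to 2000 UMIs, without cells under that depth. The right panel shows the Gzmc level in CPM over all gated NK cells. EV and Bmal1 WT points overlap on the left and not in the other 2 panels.

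Whether the frequency of these cells differed between EV and Bmal1 WT was then asked. Gzmc-positive cells were 5.15, 8.46 and 4.82% of the NK cells of h1, h7 and h8, and 18.9, 7.32 and 14.3% of those of h3, h5 and h9. Hashtags h3 and h9 stood above all EV hashtags, and h5 lay below h7. The means were 6.15% ± 2.01 (SD, n = 3) and 13.5% ± 5.85 (SD, n = 3), with p = 0.2 in a two-sided exact permutation test and 0.25 after Benjamini-Hochberg adjustment over 5 such comparisons. Of all kept cells, members were 1.62% ± 0.728 in EV and 2.56% ± 1.40 in Bmal1 WT (exact permutation p = 0.4), and NK cells of both classes were 25.8% ± 4.40 and 18.3% ± 2.47 (exact permutation p = 0.2), both with overlapping hashtags. After thinning, the share was 4.70% ± 0.752 against 9.95% ± 3.09, and the groups did not overlap (exact permutation p = 0.1, the smallest that 3 against 3 allows). By hashtag it was 3.86, 5.32 and 4.91% in h1, h7 and h8 and 12.1, 6.41 and 11.3% in h3, h5 and h9. The thinning was 1 random draw, and h5, the Bmal1 WT hashtag nearest to EV, held 6 members before it. The summed Gzmc level over all gated NK cells was 62.1, 102 and 90.2 CPM in EV and 763, 390.0 and 355 CPM in Bmal1 WT, again without overlap (exact permutation p = 0.1). In h5, however, 154 of 176 Gzmc UMIs came from a single cell. With the cell richest in Gzmc left out of each hashtag, h5 was at 50.9 CPM, within the EV range of 40.2 to 69.4 CPM, and p was 0.3. None of the 5 comparisons could pass an adjusted threshold of 0.05 at this number of replicates.

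Members were next compared with Gzmc-negative NK cells of the same hashtags, with the hashtag as a block, by edgeR's quasi-likelihood test on UMIs summed per hashtag and class. Of 6620 genes tested, 156 rose and 293 fell in members at an adjusted p under 0.05, which is 6.78% in all, 2.36% for rises and 4.43% for falls. The gate genes were left out of the test. Genes of lymphocyte recirculation (Klf2, S1pr1, S1pr5) were among those that fell, and Sema6d, Cxcr6, Cdh1 and Inpp4b among those that rose. The median log2 fold change over all genes was -0.12, and the split between rises and falls turned with the scaling, to 193 and 189 with TMM factors and to 171 and 81 with DESeq2. Left out in turn, h3 lowered the count of called genes to 206 and h8 to 297. Thinned to 2000 UMIs, 71 of the 102 members deep enough remained positive, and 19 genes rose and 35 fell. The others then counted as Gzmc-negative, a class of 1102 cells after thinning and 1071 deep enough cells before. Without the 5% of NK cells with the most UMIs 106 genes were called. That step removed 19 of 103 members and 46 of 1182 Gzmc-negative NK cells.

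**Figure D2:**
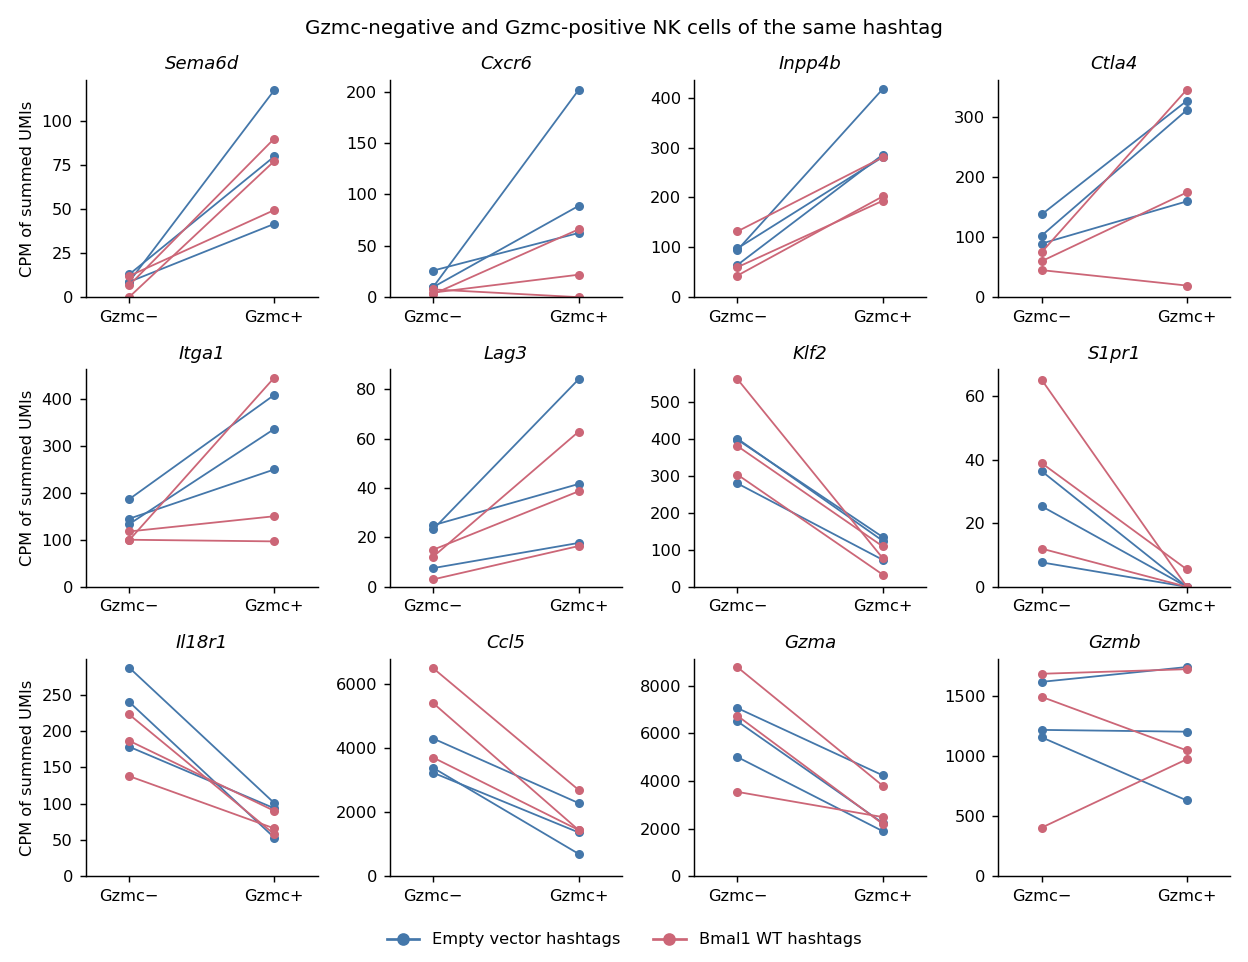
Each line joins the CPM of 1 gene in the Gzmc-negative and the Gzmc-positive NK cells of 1 hashtag, in blue for EV and in red for Bmal1 WT. Sema6d, Inpp4b and Lag3 were higher in the Gzmc-positive cells of 6 of 6 hashtags and Cxcr6, Ctla4 and Itga1 in 5 of 6, whereas Klf2, S1pr1, Il18r1, Ccl5 and Gzma were lower in 6 of 6 and Gzmb lines cross.

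Of all lists, that of circulation and maturation genes had the highest share of falls. Of its 13 tested genes 11 fell and 0 rose, with a median log2 fold change of -1.35, and with DESeq2 5 fell, without S1pr1, S1pr5, Cx3cr1 and Prdm1. Klf2, the transcription factor that maintains egress receptors, was at 124, 72.8, 134, 109, 77.3 and 33.0 CPM in members of h1, h7, h8, h3, h5 and h9, and at 399.8, 279, 397, 379.9, 561 and 303 CPM in Gzmc-negative NK cells. The classes did not overlap, as was so for 2.28% of all genes tested, and Klf2 fell by 1.92 ± 0.17 (SE) on the log2 scale (adjusted p = 1.59e-13, lower in 6 of 6 hashtags). S1pr1, a receptor for the egress signal sphingosine 1-phosphate, had 0 UMIs in members of 5 hashtags and 5.46 CPM in h3, against 36.3, 7.67, 25.3, 38.9, 65.1 and 11.99 CPM in the negative class. It rested on 2 UMIs in members and 159 in the negative class, and fell by 3.66 ± 0.71 (adjusted p = 0.000183). S1pr5, a second such receptor, had 8.88 CPM in h1, 8.40 CPM in h8 and 0 elsewhere in members, against 16.3 to 27.5 CPM in the negative class, and fell by 3.13 ± 0.79 (adjusted p = 0.00569). Zeb2 and Prdm1, regulators of terminal NK maturation, fell by 1.05 ± 0.20 and 1.03 ± 0.26, and the integrin gene Itgam by 1.11 ± 0.22. Ccr2 and Emb did not pass, at log2 fold changes of -0.09 and 0.07. The chemokine receptor gene Cx3cr1 fell by 2.64 ± 0.66, and its annotated span overlaps Gorasp1, Csrnp1 and Xirp1 on the same strand. In the 10 members without a single hashtag, which entered no test, Klf2 and S1pr1 were at 82.3 and 0 CPM, against 467 and 41.2 CPM in 165 such Gzmc-negative NK cells. Of the called list genes with a level in these cells, 41 of 46 that fell were lower in the members and 12 of 17 that rose were higher, and Inpp4b, Cd226, Slamf7, Tmem176a and Gapdh were not. These counts rest on few cells, and 1 UMI in the 10 members is 11.8 CPM. EV supplied 3 of these members with no hashtag and 2 with several, as did Bmal1 WT. Of the Gzmc-negative NK cells EV supplied 87 and 53 and Bmal1 WT 15 and 10, so class and library are mixed. The share over all genes is not given.

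Residency and ILC1 genes moved in both directions. Of 12 tested genes 4 rose and 2 fell, and the list's median log2 fold change was 0.42, although it was -0.05 over 10 tested genes once the NK cells with 5 or more UMIs of another cell type's markers were left out. Cxcr6, the receptor for the chemokine Cxcl16, was at 88.8, 62.4, 202, 21.8, 0 and 66.0 CPM in members of h1, h7, h8, h3, h5 and h9, and at 9.84, 25.9, 10.0, 4.44, 7.51 and 3.00 CPM in Gzmc-negative NK cells. It was higher in 5 of 6 hashtags, with h5 at 0, and rose by a log2 fold change of 2.79 ± 0.39 (adjusted p = 3.83e-07). Fyco1 overlaps it on the other strand, and the use of strand in counting was not stated. Inpp4b, a phosphoinositide phosphatase gene, ranged from 193 to 417 CPM in members and from 43.3 to 132 CPM in the negative class. These ranges did not overlap, and Inpp4b rose by 1.85 ± 0.17 (adjusted p = 1.83e-13). Itga1, encoding CD49a, the alpha chain of a collagen receptor, was at 408, 249.8, 336, 150.2, 96.6 and 445 CPM in members and 98.9 to 186 CPM in the negative class, and rose by 0.99 ± 0.17 (adjusted p = 2.06e-05), with h5 alone lower. Tmem176a, a neighbour of Tmem176b on the opposite strand, rose by 1.40 ± 0.43. The integrin gene Itgb7 and the ligand-activated factor gene Ahr fell by 0.82 ± 0.19 and 0.86 ± 0.23. Cd69 and Rgs1 did not pass, at -0.51 and 0.15.

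Outside the lists, Sema6d, which encodes a transmembrane semaphorin, had the largest rise of the named genes. It stood at 79.9, 41.6, 118, 90.1, 77.3 and 49.5 CPM in members and at 12.9, 8.63, 8.66, 6.66, 0 and 11.99 CPM in Gzmc-negative NK cells. The classes did not overlap, and the rise was 3.17 ± 0.37 (adjusted p = 2.23e-09). Cdh1, encoding E-cadherin, the ligand of the inhibitory receptor Klrg1, was at 58.0 to 214 CPM in members and 15.6 to 57.6 CPM in the negative class, and rose by 1.95 ± 0.25 (adjusted p = 3.45e-08). Hilpda, a hypoxia-induced inhibitor of lipolysis, rose by 1.47 ± 0.21. AA467197, Cox6a2, a mitochondrial cytochrome oxidase subunit gene, 2010300C02Rik and Ehd1, an endocytic recycling gene, rose by 1.84, 1.85, 1.43 and 1.28, but Cox6a2 was at 0 in members of h5 and h9. Of the falls outside the lists, Hes1, a target of Notch signalling, was at 0 to 8.88 CPM in members and 30.0 to 37.8 CPM in the negative class and fell by 2.94 ± 0.56 (adjusted p = 0.00017). Pou2f2, Frat2 and Mirt1 fell by 2.72, 2.64 and 2.475.

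Some of the named falls came with markers of other cell types. T cell markers reached 5 UMIs in 68 members and 480 Gzmc-negative NK cells. B cell markers, Ighm among them, did so in 22 and 33, and endothelial markers, Pecam1 among them, in 16 and 22. T cell markers, Ighm and Pecam1 were not counted as markers of other types in what follows. Of the remaining markers of any 1 type, 28 of 1182 Gzmc-negative NK cells and 1 of 103 members had 5 or more UMIs. The summed dendritic cell markers were 204 CPM in the negative class and 14.2 CPM in members, melanoma markers 40.7 and 10.1 CPM, and fibroblast markers 89.3 and 14.2 CPM. Without those cells Col18a1, a basement membrane collagen gene, kept 14 of 140 UMIs, Plet1 6 of 104, the matrix genes Mgp 34 of 118 and Sparc 37 of 225, and they were no longer tested. S1pr1 kept 161 of 161 UMIs, S1pr5 114 of 115, Cx3cr1 142 of 143 and Hes1 181 of 195. As fitted, Col18a1 and Plet1 had 0 UMIs in members and were at least 7.66-fold and 5.69-fold lower over the summed class, taking 3 UMIs as the floor. Mgp and Sparc fell by 3.38 and 3.14. Ccl9, a chemokine gene, fell by 3.596 and kept 98 of 100 UMIs without those cells, below the minimum for the test. Without those cells 181 genes rose and 354 fell over all genes, and 11 of 13 circulation genes again fell.

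**Figure D3:**
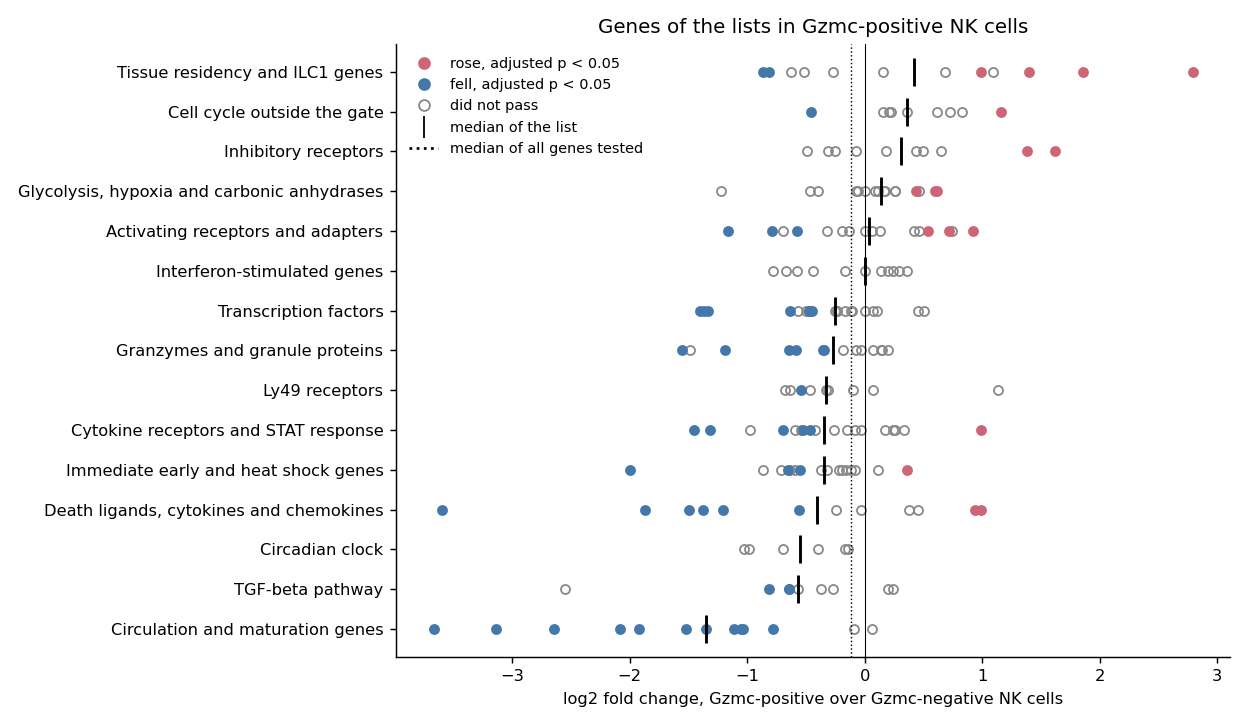
Each point is 1 tested gene of a list, placed by its log2 fold change in Gzmc-positive over Gzmc-negative NK cells, filled where the adjusted p was under 0.05 and open where it was not. Black ticks mark list medians, and the dotted line marks the median of all genes tested (-0.12). Circulation genes lie farthest to the left (median -1.35) and residency genes farthest to the right (median 0.42).

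Cytotoxic genes were not uniformly higher. Of 14 tested granzyme and granule genes 0 rose and 6 fell, with a median of -0.27, but 3 fell with TMM factors (Gzma, Serpinb6b, Serpinb9b) and 2 with DESeq2 (Gzma, Serpinb6b). Gzma, which encodes a tryptase-like granzyme, was at 1900.2, 2243, 4242, 2203, 3807 and 2491 CPM in members and at 5008, 6505, 7063, 6739, 8778 and 3547 CPM in Gzmc-negative NK cells. It was lower in 6 of 6 hashtags and fell by 1.19 ± 0.09 (adjusted p = 7.21e-17), although the members of h8 and of h5 lay above the Gzmc-negative NK cells of h9. Gzmb ranged from 630.5 to 1738 CPM in members and from 405 to 1682 CPM in the negative class and did not pass (log2 fold change -0.07 ± 0.12, adjusted p = 0.816). Prf1 did not pass either (-0.19 ± 0.11, adjusted p = 0.387). Serpinb9, whose product inhibits granzyme B, fell by 0.35 ± 0.10, and its relatives Serpinb9b and Serpinb6b fell by 1.56 ± 0.30 and 0.64 ± 0.13.

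Of 12 tested death ligands, cytokines and chemokines 6 fell and 2 rose, and with DESeq2 3 fell (Ccl3, Ccl4, Ccl5) and 1 rose (Ltb). Ccl5, which recruits T cells and dendritic cells, was at 1376, 708, 2293, 1452, 2706 and 1451 CPM in members and 3238, 3390.2, 4307, 5412, 6503 and 3712 CPM in the negative class. No hashtag overlapped, and Ccl5 fell by 1.49 ± 0.10 (adjusted p = 2.25e-19). Ccl3 and Ccl4, inflammatory chemokine genes, fell by 1.87 ± 0.25 and 1.38 ± 0.13, and Ifng and Fasl by 1.21 ± 0.28 and 0.56 ± 0.16. Ltb, a lymphotoxin chain, and Tnfsf10, which encodes the death ligand TRAIL, rose by 0.93 ± 0.15 and 0.99 ± 0.26. Xcl1 did not pass over all hashtags. Fitted by library, it was at -0.33 in EV and at 1.22 in Bmal1 WT (edgeR, adjusted p = 0.489 and 0.00794). The receptors of interleukin 18, Il18r1 and Il18rap, fell by 1.32 ± 0.19 and 1.45 ± 0.18 without overlap of the classes. They were among 5 falls and 1 rise (Il21r, 0.99 ± 0.22) in 18 tested genes of cytokine receptors and STAT responses.

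Of 10 tested inhibitory receptors Lag3 (1.62 ± 0.37) and Ctla4 (1.38 ± 0.18) rose and 0 fell. With DESeq2 Ctla4 alone rose, and without the NK cells holding other types' markers Klrc1 and Klre1 also fell. Ctla4 was at 159.8, 312, 328, 175, 19.3 and 346 CPM in members and 89.4, 103, 138, 60.0, 45.1 and 75.0 CPM in the negative class, so that h5 alone was lower. Of 16 tested activating receptors and adapters 3 rose (Cd226, Slamf7 and Tnfrsf9, at 0.92, 0.72 and 0.54) and 3 fell (Klrk1, Klrb1a and Klrc2, at -0.57, -1.16 and -0.79). Of 9 tested genes of the Ly49 list, close paralogs between which reads can be split, Klri2 fell by 0.55 ± 0.15 and 0 rose. With TMM factors and with DESeq2 0 fell, and without the NK cells holding other types' markers 4 did (Klra3, Klra4, Klra8, Klri2). Transcription factors gave 6 falls among 21 tested (3 with DESeq2), including Tcf7 (-1.40 ± 0.23), Myb (-1.33 ± 0.23) and Bach2 (-1.37 ± 0.29), factors of early or memory lymphocytes, while Tbx21 and Runx3 did not pass at -0.12 and -0.10. After thinning to 2000 UMIs Bach2 was at 0.11.

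Glycolysis, hypoxia and carbonic anhydrase genes gave 3 rises (Gapdh 0.60, Vegfa 0.62 and Gpi1 0.43) and 0 falls in 16 tested. With DESeq2 2 rose (Gpi1, Gapdh), and without the NK cells holding other types' markers 7 of 15 did, Tpi1, Pgk1, Pkm and Ldha besides. Car2 did not pass (0.16 ± 0.13). TGF-beta pathway genes gave 2 falls in 9 (Smad3 and Ski, by 0.81 and 0.64), neither of which passed with TMM factors or DESeq2. Immediate early and heat shock genes gave 1 rise (Hsp90ab1, 0.36) and 3 falls (Jund, Ier2 and Hspa1b, at -0.65, -0.55 and -1.997) in 16, of which Hsp90ab1 and Jund passed with DESeq2. Cell cycle genes outside the gate gave 1 rise (Mcm5, 1.16) and 1 fall (Hmgb2, by 0.46) in 9, and 0 of either with DESeq2. None of 11 interferon-stimulated and 6 circadian clock genes passed, the medians being 0.00 and -0.55. Arntl itself, which encodes Bmal1, had a log2 fold change of -0.70 ± 0.53 and an adjusted p of 0.524.

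The same cells were also described along the number of Gzmc UMIs, the value that chose the members. Cells were pooled over hashtags and libraries, and the levels are a description rather than a further test of the contrast. Cells were grouped into 1182 with 0, 40 with 1, 26 with 2 to 7 and 37 with 8 or more Gzmc UMIs. Across these groups, in that order, Gzma was at 6365, 5282, 3233 and 808 CPM and Klf2 at 391, 222, 73.4 and 31.8 CPM. Each was lower with every step. S1pr1 was at 30.7, 6.72, 0 and 0 CPM. Inpp4b stood at 81.2, 181, 225 and 299 CPM and Itga1 at 136, 215, 229 and 267 CPM. Cxcr6 and Ctla4 were highest in the 2 to 7 group, at 78.0 and 348 CPM. Median depth was higher along the same groups, from 4470.0 to 6790.5, 7639 and 12027 UMIs, and its part in these levels was not tested. The mix of libraries changed too, from 896 EV and 286 Bmal1 WT cells with 0 Gzmc UMIs to 18 and 19 with 8 or more. The part of that mix was not tested either. Eomes, a gate gene, stood at 539.7, 413, 279.7 and 252 CPM.

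**Figure D4:**
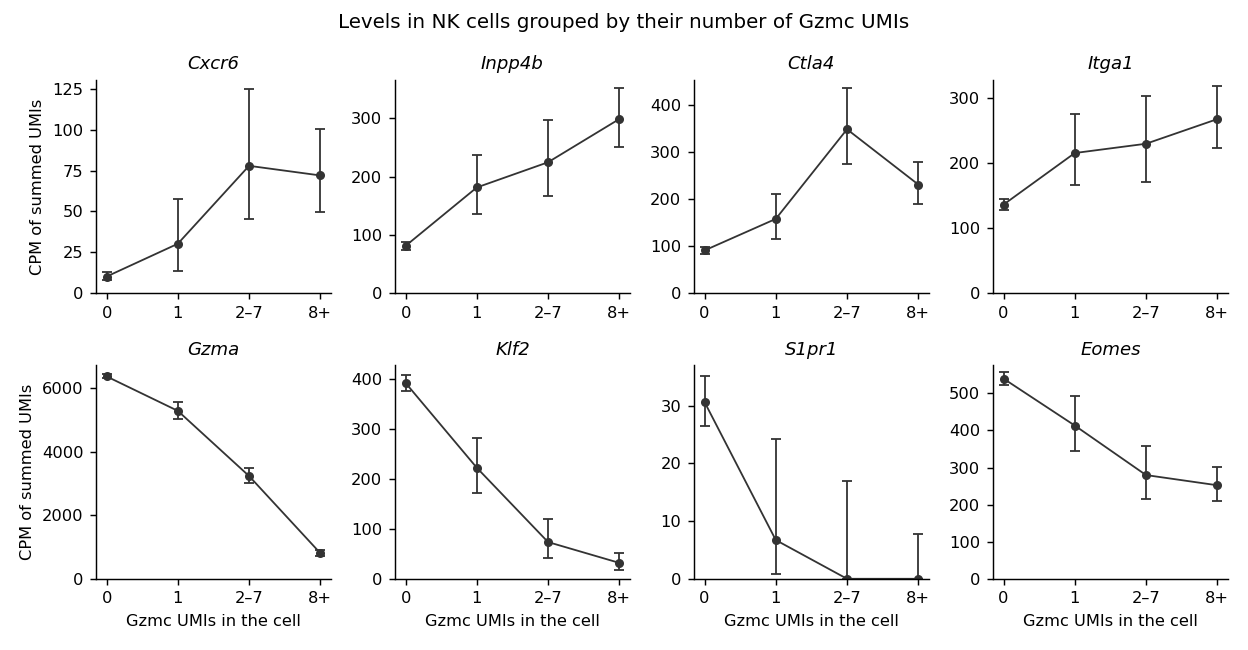
Each panel gives the CPM of 1 gene over NK cells grouped by their number of Gzmc UMIs (0, 1, 2 to 7, 8 or more), with 95% exact Poisson intervals that cover counting error only. Gzma, Klf2 and Eomes are lower and Inpp4b and Itga1 higher at each step to the right, S1pr1 is at 0 from 2 UMIs on, and Cxcr6 and Ctla4 level off or turn at 8 or more UMIs.

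Each library was also fitted alone. The 3 EV hashtags gave 163 called genes of 5529 (2.95%) and the 3 Bmal1 WT hashtags 39 of 3329 (1.17%). Of the genes called in EV and tested in Bmal1 WT, 145 of 148 had the same sign there, and of those called in Bmal1 WT and tested in EV, 34 of 36 did. The libraries called 23 genes in common, 14.1% of the EV calls and 59.0% of the Bmal1 WT calls.

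The promoters of Gzmc, of Cxcr6, whose level rose in members, and of Xcl1, the gene nearest to the threshold between groups in the members, are shown to give the sequence context of these genes. Each is the 250 bases before the annotated start, read on the gene's strand from RefSeq (GRCm38.p6), with capitals marking matches on either strand to TGTGGT, a core of the RUNX motif, or GGTGTGA, a core of the T-box motif.
Gzmc (chr14:56234658-56234907, minus strand): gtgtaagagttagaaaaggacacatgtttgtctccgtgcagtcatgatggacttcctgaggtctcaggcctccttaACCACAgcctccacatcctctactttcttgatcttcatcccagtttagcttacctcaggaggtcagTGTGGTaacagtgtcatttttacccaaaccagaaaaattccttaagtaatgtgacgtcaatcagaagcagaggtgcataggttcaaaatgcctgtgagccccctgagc
Cxcr6 (chr9:123806227-123806476, plus strand): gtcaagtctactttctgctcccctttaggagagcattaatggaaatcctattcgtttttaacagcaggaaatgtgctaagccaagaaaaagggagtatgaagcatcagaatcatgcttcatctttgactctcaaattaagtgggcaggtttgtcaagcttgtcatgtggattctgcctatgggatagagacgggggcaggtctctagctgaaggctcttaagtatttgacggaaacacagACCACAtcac
Xcl1 (chr1:164935523-164935772, minus strand): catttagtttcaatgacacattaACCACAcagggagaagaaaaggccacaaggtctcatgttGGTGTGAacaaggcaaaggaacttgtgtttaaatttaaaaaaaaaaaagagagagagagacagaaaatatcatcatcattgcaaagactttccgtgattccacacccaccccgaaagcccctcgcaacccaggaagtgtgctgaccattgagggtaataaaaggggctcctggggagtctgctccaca
Gzmc held 2 RUNX matches, Cxcr6 held 1, and Xcl1 held 1 together with 1 T-box match. Of 32851 promoters of this length, 14.0% held a RUNX and 3.33% a T-box match. None of these promoters held the AP-1 letters TGACTCA or the E-box letters CACGTG, found in 4.46% and 6.02% of all promoters. These matches are letters in a window and were not tied to binding.

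The last comparison was of Bmal1 WT with EV within the members. At an adjusted p under 0.05, edgeR called 0 of 1359 genes, 77 (5.67%) had an unadjusted p under 0.05, and DESeq2 called 1. Within Gzmc-negative NK cells edgeR called 0 of 6204 genes, 724 (11.7%) had an unadjusted p under 0.05 and DESeq2 called 76. Xcl1 came nearest in the members. Its level was 178, 249.8 and 202 CPM in h1, h7 and h8 and 934, 329 and 478 CPM in h3, h5 and h9. Every Bmal1 WT hashtag stood above every EV hashtag, groups did not overlap for 14.3% of all genes tested, and the log2 fold change was 1.59 ± 0.31 with an adjusted p of 0.0779. In Gzmc-negative NK cells Xcl1 was at 314, 318 and 174 CPM in EV and 398, 95.1 and 269.9 CPM in Bmal1 WT. These groups overlapped and differed by -0.01 ± 0.36 on the log2 scale, while groups did not overlap for 19.4% of all genes tested there. Few cells carried the members' signal. In h5 2 of 6 members had an Xcl1 UMI, and in h9 15 of 29 UMIs came from a single cell. With the cell richest in Xcl1 left out of each hashtag the levels were 150.2, 201 and 169 CPM in EV and 742, 182 and 293 CPM in Bmal1 WT, so that h5 lay within the EV range. With each cell weighing the same the log2 fold change was 0.75 (limma, adjusted p = 0.620), and without the 5% of NK cells with the most UMIs it was 0.84 (adjusted p = 0.412).

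**Figure D5:**
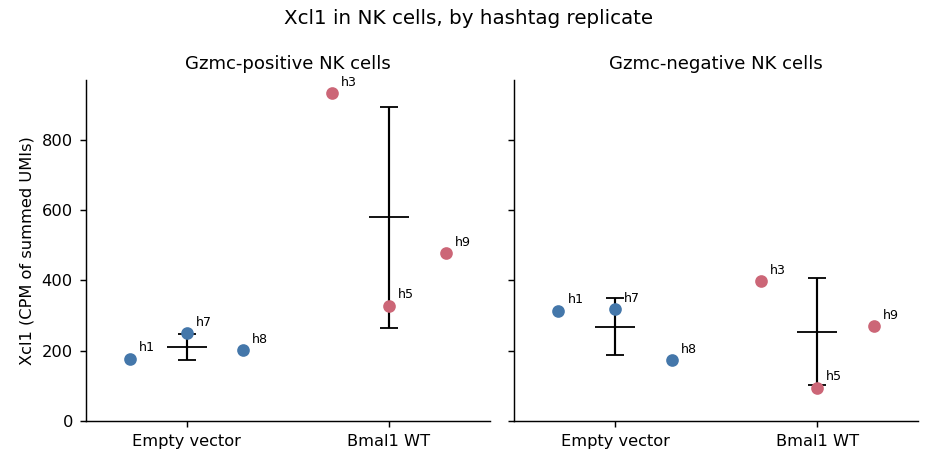
Each point is the Xcl1 level of 1 hashtag in CPM of summed UMIs, with the mean ± SD of 3, for Gzmc-positive NK cells on the left and Gzmc-negative NK cells on the right. Bmal1 WT lies above EV on the left (580.2 ± 315 against 209.7 ± 36.8 CPM) and overlaps it on the right.

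Among the 96 list genes tested between groups in the members, 9 had an unadjusted p under 0.05 and 0 passed adjustment. Besides Xcl1, 3 of the 12 immediate early and heat shock genes tested were among them, Fos and Fosb at 0.85 and 1.19 and Junb at -0.45. Vegfa was at 364, 271 and 420.0 CPM in members of h1, h7 and h8 and at 251, 135 and 82.5 CPM in h3, h5 and h9, without overlap (log2 fold change -0.86 ± 0.31, adjusted p = 0.728). The others were Nr4a2 at -0.76, Klra1 at -1.20, Klra9 at -0.60 and Tnfrsf9 at 0.63. Gzma, Gzmb and Prf1 differed by 0.00 ± 0.25, 0.01 ± 0.28 and 0.21 ± 0.28 on the log2 scale between Bmal1 WT and EV members. With these few cells, differences well beyond these errors could also be missed. In simulated sums, changes of 1 on the log2 scale were called for 50% of changed genes in this comparison. Vegfa, at -0.86 ± 0.31, did not pass. No circadian clock gene reached the minimum of 100 UMIs for this test.

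Whether the contrast between members and Gzmc-negative NK cells differed between the groups was tested as an interaction in edgeR. It passed for 4 of 6620 genes (0.0604%), Xcl1, Khdc1a, Klra5 and Naaa, and 228 genes (3.44%) had an unadjusted p under 0.05. DESeq2, limma and the fit without the hashtag block called 0.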

How the data were processed

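Single-cell 3′ libraries (Chromium v3.1) and hashtag libraries of the EV and Bmal1 WT groups were used. The authors deposited whole-number UMI counts per gene and cell barcode for 31053 genes, made with Cell Ranger 6.1.2 per the file headers on mm10 per the submitters' processing notes, with no normalization. The sources used here do not state whether doublets were removed before deposit. Gene UMIs totalled 34232927 in EV and 39561569 in Bmal1 WT. The Bmal1 bHLH files were byte-identical to those of Bmal1 WT and were not used.

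Hashtags were assigned from hashtag counts by a 2-component Gaussian mixture (scikit-learn 1.9.0, Python 3.11.15), and cells with no or several hashtags entered no test, which was the only treatment of doublets. UMIs were summed per hashtag and class. Genes with at least 100 UMIs over the sums were tested with edgeR 4.0.16 (R 4.3.3), quasi-likelihood, total UMIs as library size, with Benjamini-Hochberg adjustment. The contrast of classes carried the hashtag as a block, since both classes of a hashtag come from the same replicate. Exact permutation tests enumerated all splits of the hashtags into groups (numpy 2.4.6). The exact intervals and the adjustment of the permutation p-values used scipy 1.17.1. Alternatives were DESeq2 1.42.0, limma 3.58.1 on log2 of mean CPM + 10, TMM, other filters, thinning, and leaving out each hashtag. The tests were first run on simulated sums with 1 dispersion set for all genes, which need not be that of sums of few cells. Changes of 1 on the log2 scale were called for 39.4% of changed genes in the contrast of classes. They were called for 50% between groups in the members and for 3.96% in the interaction. For changes of 2 the shares were 92.1, 97.9 and 34.3%. Intervals cover counting error only.

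Named genes were the 12 largest rises and 12 largest falls among called genes changed in 1 direction in the 4 hashtags with 10 or more cells of both classes, the members of 15 lists, the 15 largest folds over all other kept cells (at least 20 UMIs and 50 CPM in members, 5 CPM added), of which the 5 after Gzmc and Car2 are given as such, and for the group comparison list members with an unadjusted p under 0.05. Genes named from these lists with values but outside the 12 and 12 were picked as examples after their values were seen. The members and the lists were chosen with earlier results of these data known. The leaving out of NK cells with other cell types' markers, the fits within 1 library and the leaving out of the cell richest in Gzmc or Xcl1 were added after seeing the data. For the first of these, T cell markers, Ighm and Pecam1 were not counted. 1 list gene is not reported here by name, though list counts and medians include it.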

Additional observations from a re-analysis of the deposited data

Results flagged for a closer look

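For 4 of 6620 genes (0.0604%) the difference between Gzmc-positive and Gzmc-negative NK cells itself differed between Bmal1 WT and EV in edgeR's quasi-likelihood test of the interaction (adjusted p under 0.05), while 228 (3.44%) had an unadjusted p under 0.05 and DESeq2, limma and thinning called 0.

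The chemokine gene Xcl1 had a log2 interaction of 1.54 ± 0.29 (adjusted p = 0.00109), with adjusted p from 0.0014 to 0.999973 over the alternatives and a call in 10 of 18 of them. Khdc1a had 2.10 ± 0.43 (adjusted p = 0.00326), with 88.8, 36.4 and 67.2 CPM in EV members and 81.9, 387 and 346 CPM in Bmal1 WT members, against 111, 66.2 and 98.6 CPM and 36.7, 135 and 84.0 CPM in Gzmc-negative NK cells. The members of h5 and h9 were the highest of these.

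Klra5, a Ly49 gene with close paralogs, had 8.30 ± 1.76 (adjusted p = 0.00678), a fitted value that depends on the 0 UMIs of all EV members and is no measure of size. The Bmal1 WT members had 40 UMIs, at 79.2, 19.3 and 165 CPM. Naaa, a lysosomal amidase gene, had -5.18 ± 0.88 (adjusted p = 6.65e-05), with Gzmc-negative NK cells of h3 at 143 CPM and all other values at or under 42.0 CPM. Without the NK cells with 5 or more UMIs of another cell type's markers 63 of its 208 UMIs were left and it was no longer tested.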

How the results depend on the processing

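The contrast of Gzmc-positive with Gzmc-negative NK cells gave 449 called genes, and 282 with no replicate block, 252 with DESeq2, 232 with limma, 54 after thinning to 2000 UMIs, 106 without the 5% of NK cells with the most UMIs, 163 within EV, 39 within Bmal1 WT, and 206 to 484 without 1 hashtag. Thinning, the single libraries, the hashtags left out and the deepest cells left out use fewer cells or genes. Leaving out the deepest cells removed 19 of 103 members but 46 of 1182 Gzmc-negative NK cells. For the other alternatives the cause was not tested. Of 80 genes followed, 77 kept 1 direction under all alternatives that gave them an adjusted p. The exceptions were Car2, at -0.038 after thinning and -0.016 without the deepest cells, Bach2, at 0.11 after thinning, and Xcl1, at -0.33 within EV. Counted in the same way, 15 genes were called under all. For some of these 15 that covered fewer alternatives, 12 for Sema6d, 14 for Cxcr6, 15 for S1pr1, 16 for Hes1 and 17 for Cdh1. For Klf2 it covered 20.

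Between groups within members, 0 genes were called, against 1 with DESeq2, 4 with no filter on genes and 0 to 1 without 1 hashtag. Xcl1 was called in 3 of 16 alternatives, with log2 fold changes of 0.75 to 1.82 and adjusted p from 4.3e-06 to 0.652. Within Gzmc-negative NK cells 0 were called, against 76 with DESeq2, 260 with no filter, 26 with limma, 35 after thinning, 79 without the deepest cells, 20 without cells holding other types' markers, and 0 without any 1 hashtag. The interaction gave 4 genes, and 0 with DESeq2, limma, thinning or no replicate block, 2 among genes of at least 300 UMIs, 7 with hashtags by the highest centred log count, 1 without the deepest cells, and 1 to 5 without 1 hashtag. The differences of shares and of the Gzmc level kept their direction under all alternatives run. No paired analysis was possible between EV and Bmal1 WT because the groups carry different hashtags.

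The number of cells limits the group comparison, since h5 and h9 held 6 and 8 members.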

Other observations

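In the 10 members that carried no or several hashtags and entered no test, Ctla4 was at 341 CPM, Cxcr6 at 23.5 CPM, Ccl5 at 1482 CPM and Gzma at 4151 CPM. In the 165 Gzmc-negative NK cells of this kind the levels were 58.0, 2.23, 4615 and 6630.5 CPM. Of the called list genes with a level in these cells, 12 of 17 that rose were higher in the members and 41 of 46 that fell were lower. Class and library were mixed in these cells, and 1 UMI was 11.8 CPM in the members. Against the contrast, Inpp4b was at 94.1 against 98.1 CPM in the Gzmc-negative NK cells, Cd226 at 11.8 against 46.8 CPM, Slamf7 at 47.0 against 80.2 CPM, Tmem176a at 11.8 against 35.7 CPM and Gapdh at 611 against 669 CPM. Ifng, which fell in the tested cells, was at 176 against 64.6 CPM, and Bach2, Tcf7, Ski and Nr4a1 were likewise higher in these members. The 1 Lag3 UMI in these members gave 11.8 CPM, against 11.1 CPM. Thy1, an adhesion glycoprotein gene outside the lists chosen after its values were seen, was at 260, 336, 509 and 776 CPM in NK cells with 0, 1, 2 to 7 and 8 or more Gzmc UMIs.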
